A study of Mus musculus with 6 samples.

Results

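The 34 genes described here mark the cells of blood vessels: 23 mark endothelial cells, which line the vessel, and 11 mark mural cells, the pericytes and smooth muscle cells wrapped around it. They were chosen by name, and every probe set that the platform annotation assigns to exactly 1 of them was taken. This gave 56 of the 45101 probe sets on the array, covering 32 of the 34 genes. Ly6c1 and Ly6a, surface antigens of endothelial cells, had no probe set of their own: 1 probe set is shared by Ly6c1 and Ly6c2, and it gives no value here. Hippocampal RNA was measured on 6 arrays: 3 of them carry wild-type RNA and 3 carry RNA of inhibitor-1 knockout mice. Inhibitor-1, encoded by Ppp1r1a, restrains protein phosphatase 1 once protein kinase A has phosphorylated it. The labels give genotype, tissue and replicate number, and nothing on age, sex, strain, treatment, the targeting construct or whether each array stands for a separate animal, so the p-values rest on array-to-array spread that could be technical alone.

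Brain endothelial cells form the blood-brain barrier. Tight junction proteins seal the gaps between neighbouring cells, carriers bring in glucose and other nutrients, and efflux pumps send drugs and metabolites back to the blood. Endothelial cells release platelet-derived growth factor, which recruits pericytes through the receptor Pdgfrb, and smooth muscle cells of arterioles contract through actin, myosin and their partner proteins. In RNA of whole tissue, fewer cells of a type and less RNA per cell cannot be told apart.

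The targeted gene matched the labels: Ppp1r1a intensities were between 8370 and 10345 on wild-type arrays, and between 249 and 347 on knockout arrays (log2 change -4.93, SE 0.18, limma adjusted p = 3.58e-07). Its chromosome, 15, carries 0 of the 32 measured members. The 2% trimmed mean intensity of each array was 2500. Median intensity was lowest on the replicate 1 arrays, at 574 (wild type) and 542 (knockout), against 621 to 666 elsewhere. Knockout replicate 1 also had the lowest mean correlation with its own group, 0.963 against 0.969 to 0.974 for the others.

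Differences below are knockout minus wild type on the scale log2(intensity + 16), which understates changes of dim probe sets. Probe sets were tested if their mean over all 6 arrays was above that of the lowest 40% of the array, an intensity of about 332. Of the 56 probe sets of the members, 48 passed this filter, standing for 30 genes. The defining endothelial markers Cldn5, Pecam1, Cdh5, Flt1, Tie1 and Slco1c1 were all tested. So were Pdgfrb, Rgs5, Abcc9, Vtn and Notch3 of pericytes and Acta2, Tagln and Myh11 of smooth muscle. Passing the filter is not a detection call, and the knockout mean of Cdh5 was below the filter level. Among the probe sets left out were the 1 of Anpep, a peptidase of pericytes, at intensities of 50 to 335, and both of Des, the intermediate filament desmin, at 39 to 251. Closest to the level of the filter, at a mean log2 level of 8.44, were a Cdh5 probe set just inside it at 8.51 and another of Cdh5 outside it at 7.65.

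No vascular probe set differed between the genotypes past the threshold. With limma, 0 of the 48 had a Benjamini-Hochberg adjusted p under 0.05 (lowest 0.988), where 0.0111% of all 26999 tested probe sets were called. At an unadjusted p under 0.05, 6 of the 48 were higher in knockout (12.5%, against 2.17% of all tested) and 1 was lower (2.08%, against 2.21% of all tested). The 3 knockout values all lay above the 3 wild-type values for 5 of the 48 (10.4%, against 4.97% of all tested) and below them for 0 (against 4.91%). These 7 probe sets at an unadjusted p under 0.05 belong to 5 genes, Slc2a1, Abcg2, Itm2a and Tagln higher and Cdh5 lower, and probe sets of 1 gene are not independent. The 1 lower, of Cdh5, passed the filter only through its wild-type level, so it is no support for a lower group. Their number depended on single arrays: it was 13 without knockout replicate 1, 3 without knockout replicate 2, knockout replicate 3 or wild type replicate 3, and 4 without wild type replicate 2. It was 2 without an intensity trend in the variance model and 3 after setting array medians equal.

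Most of the differences were small and positive. With the brightest tested probe set of each gene, 24 of the 30 genes had a change above 0 (80%), against 50.1% of all 12493 genes tested. The median change was 0.12 for the 21 tested endothelial genes and 0.17 for the 9 tested mural genes, against 0.0003 for all genes. Leaving out wild type replicate 1 gave a mural median of 0.07, and leaving out knockout replicate 1 gave 0.30, while the endothelial median reached 0.18 when wild type replicate 3 was left out. A change above 0 was found for 19 genes when wild type replicate 1 was left out and for 28 when knockout replicate 1 was.

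**Figure D1:**
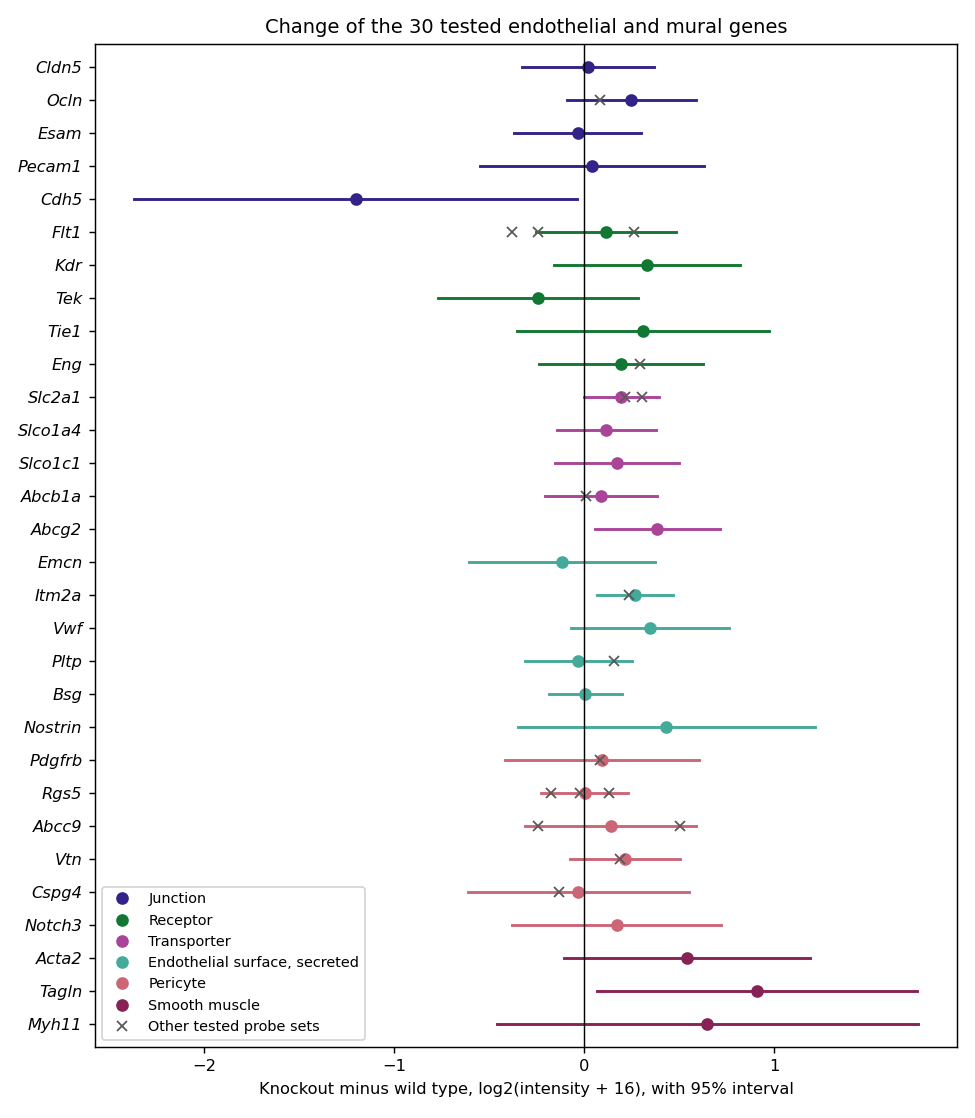
Change of the 30 tested genes between knockout and wild type on the log2 scale (x axis), coloured by role; circles are the brightest tested probe set with its unadjusted 95% interval from limma over 3 against 3 arrays, and crosses are the other tested probe sets. Most circles lie between 0 and 0.5, Cdh5 lies lowest at -1.20, and the smooth muscle genes lie highest, with intervals up to 1.76.

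**Figure D2:**
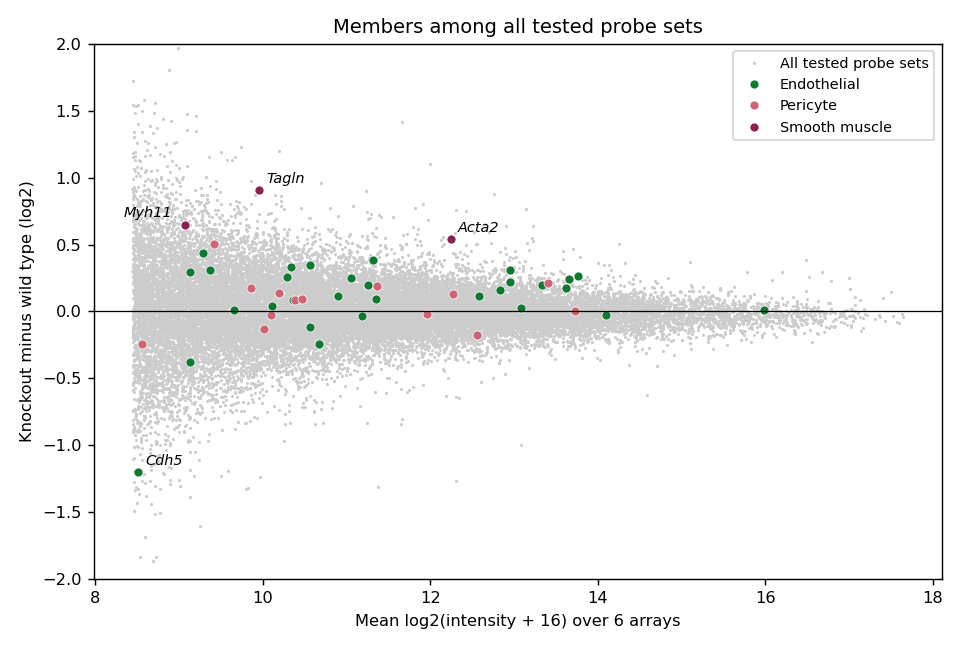
Change (y axis, log2) against mean level over the 6 arrays (x axis, log2) for all 26999 tested probe sets in grey, 3 of which lie outside the plotted range, and the 48 of the members in colour. The grey cloud narrows with brightness; most members lie within it, Acta2 and Tagln near its upper edge and Cdh5 low at its dim end.

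Junction and adhesion genes gave no call, and 4 of the 5 had estimates between -0.03 and 0.25. Cldn5, the claudin that seals the barrier's tight junctions, had intensities of 8699, 9971 and 7236 in wild type and 7516, 7734 and 11309 in knockout. The groups overlap, and knockout replicate 3 alone lies above all wild-type arrays. Its change was 0.02 (SE 0.16, 95% interval -0.33 to 0.37). Occludin, Ocln, another tight junction protein, had changes of 0.25 and 0.08 at its 2 probe sets, Esam, an adhesion molecule at endothelial junctions, -0.03 (SE 0.15), and Pecam1, an adhesion molecule on the surface of all endothelial cells, 0.04 (SE 0.27).

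Cdh5, the cadherin of endothelial adherens junctions, was too dim in knockout for a firm value. Its tested probe set, 1433956_at, gave 327, 869 and 541 in wild type and 396, 102 and 270 in knockout. Wild type replicate 2 is highest and knockout replicate 2 lowest, and knockout replicate 1 lies above wild type replicate 1, so the groups overlap. Its mean log2 level was 9.11 in wild type and 7.91 in knockout, below the filter level of 8.44, so it was tested only because of the group where it is high. The estimate of -1.20 (SE 0.53, adjusted p = 0.988 in limma) is given as a description for that reason. Without knockout replicate 2 it was -0.69, without wild type replicate 2 -0.86, and without replicate 1 of both groups -1.93. Its other probe set, dimmer and not tested, gave 188, 166 and 231 in wild type and 173, 112 and 274 in knockout. These groups overlap too, at a level below the filter.

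Receptors for vessel growth signals showed no call either. Kdr, the main receptor for vascular endothelial growth factor, gave 1019, 1089 and 1335 in wild type and 1087, 1675 and 1638 in knockout, with knockout replicates 2 and 3 above all others (change 0.33, SE 0.22). Flt1, a decoy receptor for the same ligand that is made in membrane-bound and soluble forms, had 4 probe sets that did not go one way, with changes of -0.38, -0.24, 0.12 and 0.26. Of these, 1454037_a_at had knockout values of 1302 to 1422, all above the wild-type values of 1037 to 1192, while 1419300_at had 1249 to 1686 in knockout against 1640 to 1816. None was at an unadjusted p under 0.05 in limma, and the annotation used here does not say which form each reads. The angiopoietin receptor Tek had a change of -0.24 (SE 0.24), with wild type replicate 2 at 2639 and the other 5 arrays at 1336 to 1665. Tie1, its partner receptor, had a change of 0.31 (SE 0.30), and endoglin, Eng, a co-receptor for transforming growth factor beta ligands, 0.20 (SE 0.20) and 0.30 (SE 0.40) at its 2 probe sets.

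All 5 barrier transporters had a change above 0, from 0.09 to 0.39. Slc2a1, the glucose carrier of the barrier, was read by 3 probe sets. At 1426599_a_at the intensities were 7392, 7173 and 6819 in wild type (7128 ± 289, SD, n = 3) and 10005, 8973 and 7639 in knockout (8873 ± 1190, SD, n = 3), with no overlap. Its change there was 0.31 (SE 0.11, limma unadjusted p = 0.0138, adjusted p = 0.988). At 1426600_at the values were 7791, 7085 and 7182 against 8962, 8932 and 7776, and at 1434773_a_at 9908, 9613 and 9438 against 12116, 11327 and 9861. On both, knockout replicate 3 falls just below wild type replicate 1. The changes were 0.22 (SE 0.09, limma unadjusted p = 0.0372) and 0.20 (SE 0.09, limma unadjusted p = 0.0523). The 3 probe sets thus gave the same order among the knockout arrays, highest in replicate 1 and lowest in replicate 3. After setting array medians equal, the limma unadjusted p at 1434773_a_at, the brightest, was 0.30, the highest over 17 alternatives.

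Abcg2, a drug efflux pump, gave 2378, 2466 and 1835 in wild type (2226 ± 341, SD, n = 3) and 2698, 3092 and 2891 in knockout (2894 ± 197, SD, n = 3). All knockout arrays lie above all wild-type arrays, and the change was 0.39 (SE 0.15, limma unadjusted p = 0.0256, adjusted p = 0.988). Without wild type replicate 3, the lowest, its unadjusted p was 0.104, the highest over 17 alternatives. The other main efflux pump, Abcb1a, gave 2766, 2554 and 2260 against 2866, 2598 and 2585 at its brighter probe set, a change of 0.09 (SE 0.13, 95% interval -0.20 to 0.38). Both organic anion and thyroid hormone carriers, Slco1a4 and Slco1c1, had changes of 0.12 (SE 0.12) and 0.17 (SE 0.15), with overlapping groups. Slco1a4, Slco1c1 and Slc2a1 are also made by choroid plexus or astrocytes, so these levels are not of endothelial cells alone.

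Promoter sequence of RefSeq, build GRCm38.p6, was held for 25 of the 34 members in 29 windows. The 250 bases before the transcription start are shown for Slc2a1 and Itm2a, the members with more than 1 probe set at an unadjusted p under 0.05, and for Acta2, the one smooth muscle gene with an entry. Capitals mark 2 motifs searched on both strands, the GC box GGGCGG bound by Sp family factors and ACGTG, the core of hypoxia response elements, which do not overlap here. The Slc2a1 window lies at chr4:119108495-119108744 (plus strand), that of Itm2a at chrX:107403361-107403610 (minus strand) and that of Acta2 at chr19:34255374-34255623 (minus strand).
Slc2a1: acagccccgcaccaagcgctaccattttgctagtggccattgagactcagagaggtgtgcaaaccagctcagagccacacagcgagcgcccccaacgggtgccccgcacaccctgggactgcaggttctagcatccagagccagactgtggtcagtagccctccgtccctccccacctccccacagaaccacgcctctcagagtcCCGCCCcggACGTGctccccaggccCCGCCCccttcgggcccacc
Itm2a: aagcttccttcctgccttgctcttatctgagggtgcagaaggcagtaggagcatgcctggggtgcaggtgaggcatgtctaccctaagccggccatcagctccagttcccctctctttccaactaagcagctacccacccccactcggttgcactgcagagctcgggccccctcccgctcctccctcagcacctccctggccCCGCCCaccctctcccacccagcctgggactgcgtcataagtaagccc
Acta2: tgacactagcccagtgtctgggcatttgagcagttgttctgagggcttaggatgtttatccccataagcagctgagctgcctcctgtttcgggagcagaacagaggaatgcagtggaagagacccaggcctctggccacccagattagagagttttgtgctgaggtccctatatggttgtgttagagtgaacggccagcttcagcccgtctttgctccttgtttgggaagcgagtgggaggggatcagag
Slc2a1 holds GC boxes whose first bases lie 45 and 20 bases before the start, with ACGTG between them at 36, and Itm2a holds a GC box at 48. Acta2 holds neither. Of all 32851 windows of this length, 32.7% hold GGGCGG and 16.6% ACGTG, and of the 29 windows of members 15 and 2 do. TATAAA was found in 3 of the 29 (12.4% of all windows) and the strict CArG box, a motif of smooth muscle promoters, in 0 (1.47% of all windows). The strict form allows only A and T between CC and GG. The Acta2 window holds ccctatatgg and ccttgtttgg, which each miss that form by 1 base and were not counted. A match is a description of letters and not a binding site.

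Among surface and secreted endothelial proteins, Itm2a, a membrane protein rich in brain endothelium, was the one with 2 probe sets at an unadjusted p under 0.05. At 1423608_at it gave 13462, 12802 and 11684 in wild type (12650 ± 899, SD, n = 3) and 14000, 14828 and 16901 in knockout (15243 ± 1490, SD, n = 3). At 1451047_at it gave 11425, 11352 and 12859 against 13484, 13129 and 15496. The groups do not overlap on either, and knockout replicate 3 is highest on both. The changes were 0.27 (SE 0.09, limma unadjusted p = 0.0132, adjusted p = 0.988) and 0.24 (SE 0.09, unadjusted p = 0.0212 in limma). After setting array medians equal, the unadjusted p of the first was 0.126.

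Vwf, the clotting protein von Willebrand factor, gave 1371, 1292 and 1307 in wild type and 1355, 1758 and 2016 in knockout. Knockout replicates 2 and 3 lie above every wild-type array, and knockout replicate 1 lies among them (change 0.35, SE 0.19). Nostrin, which moves endothelial nitric oxide synthase within the cell, had a change of 0.43 (SE 0.36) at intensities of 371 to 955. Emcn, an endothelial sialomucin, had -0.12 (SE 0.22). Pltp, the phospholipid transfer protein, had changes of 0.16 and -0.03 at its 2 probe sets. Bsg, a chaperone of lactate carriers that many brain cells make, had the narrowest interval of all 30 genes, -0.18 to 0.20 about a change of 0.01.

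Of the 6 tested pericyte genes 5 had a change above 0, with a median of 0.12 and a range of -0.03 to 0.22, and 0 of their 14 probe sets had an unadjusted p under 0.05 in limma. Pdgfrb gave 1129, 1266 and 1723 in wild type and 1085, 1644 and 1686 in knockout at its brighter probe set. Replicate 1 is low in both groups there, but not at 1417148_at, with 1495, 957 and 1467 against 1381, 1280 and 1416. The groups overlap on both probe sets, with changes of 0.10 (SE 0.23) and 0.08 (SE 0.21) in that order. Rgs5, a regulator of G protein signalling in pericytes, gave 13367, 13653 and 13382 in wild type and 11287, 15190 and 14348 in knockout. The change was 0.003 (SE 0.10) at this probe set, 1417466_at. The knockout arrays lay on both sides of the wild-type ones there, with an SD of 2050 against 161. Its 3 other probe sets had changes of -0.18 to 0.13. The wider knockout spread was not shared by all of them. The knockout SD was 541 against 201 in wild type at 1420942_s_at. It was 324 against 349 at 1420940_x_at and 262 against 1400 at 1420941_at.

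Vtn, the matrix protein vitronectin, gave 9152, 11583 and 9654 in wild type and 9458, 13196 and 12847 in knockout, with knockout replicate 1 again among the wild-type arrays (change 0.22, SE 0.13). Abcc9, the sulphonylurea receptor subunit of a potassium channel, had changes of -0.24, 0.14 and 0.50 at its 3 probe sets. The probe set at -0.24 had a mean log2 level of 8.68 in wild type and 8.436 in knockout. As the knockout level is just below that of the filter, 8.444, this change is a description only. Both probe sets of the proteoglycan gene Cspg4, which oligodendrocyte precursors also express, were slightly below 0 (-0.03 and -0.13). Notch3, the Notch receptor of mural cells, had a change of 0.17 (SE 0.25).

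The smooth muscle genes gave the 3 largest positive changes among the 30 reference probe sets, 0.54 to 0.91. Acta2, smooth muscle actin, gave 3866, 5002 and 3303 in wild type (4057 ± 866, SD, n = 3) and 3213, 7163 and 8609 in knockout (6328 ± 2790, SD, n = 3). Knockout replicates 2 and 3 lie above every other array, while knockout replicate 1 is the lowest of all 6. The change was 0.54 (SE 0.29, limma unadjusted p = 0.0922, adjusted p = 0.988). Its tested probe set, 1416454_s_at, carries the suffix used for probes shared by several transcripts, so other actins may add to it. Below the filter and not tested, 1444105_at averaged 232 in wild type and 109 in knockout. At 1456658_at, also untested, the means were 49 and 187.

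Tagln, the actin-binding protein transgelin, gave 610, 1115 and 517 in wild type (747 ± 322, SD, n = 3) and 737, 1964 and 1662 in knockout (1454 ± 639, SD, n = 3). Again knockout replicates 2 and 3 are above all others and replicate 1 lies among the wild-type arrays. The change was 0.91 (SE 0.38, limma unadjusted p = 0.0362, adjusted p = 0.988), a fold of 1.88 with a log2 interval of 0.07 to 1.75. Myh11, smooth muscle myosin heavy chain, gave 680, 520 and 196 against 356, 710 and 1112 (change 0.65, SE 0.51). Its order differs in that wild type replicate 3 is the lowest array. Single arrays decided its size: the change was 0.14 when wild type replicate 3 was dropped and 0.28 when knockout replicate 3 was. It was 1.00 and 1.08 when replicate 1 of wild type or of knockout was dropped. All 3 genes were highest on knockout replicates 2 and 3, while knockout replicate 1, where Slc2a1 was highest, was below 2 or more wild-type arrays for Acta2 and Myh11. Without knockout replicate 1 the changes of Acta2 and Tagln were 0.97 and 1.34 (limma adjusted p = 0.0976 and 0.202), and without knockout replicate 3 that of Acta2 was 0.26 (limma adjusted p = 1). Tagln had a change of 0.64 without knockout replicate 2 and 0.76 without knockout replicate 3 (limma unadjusted p = 0.15 and 0.12). Its change was 0.81, 1.23 and 0.69 without wild type replicate 1, 2 or 3 (limma unadjusted p = 0.095, 0.012 and 0.13). Without replicate 1 of both groups Acta2 had the lowest adjusted p of any member probe set under any setting, 0.094 in limma.

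**Figure D3:**
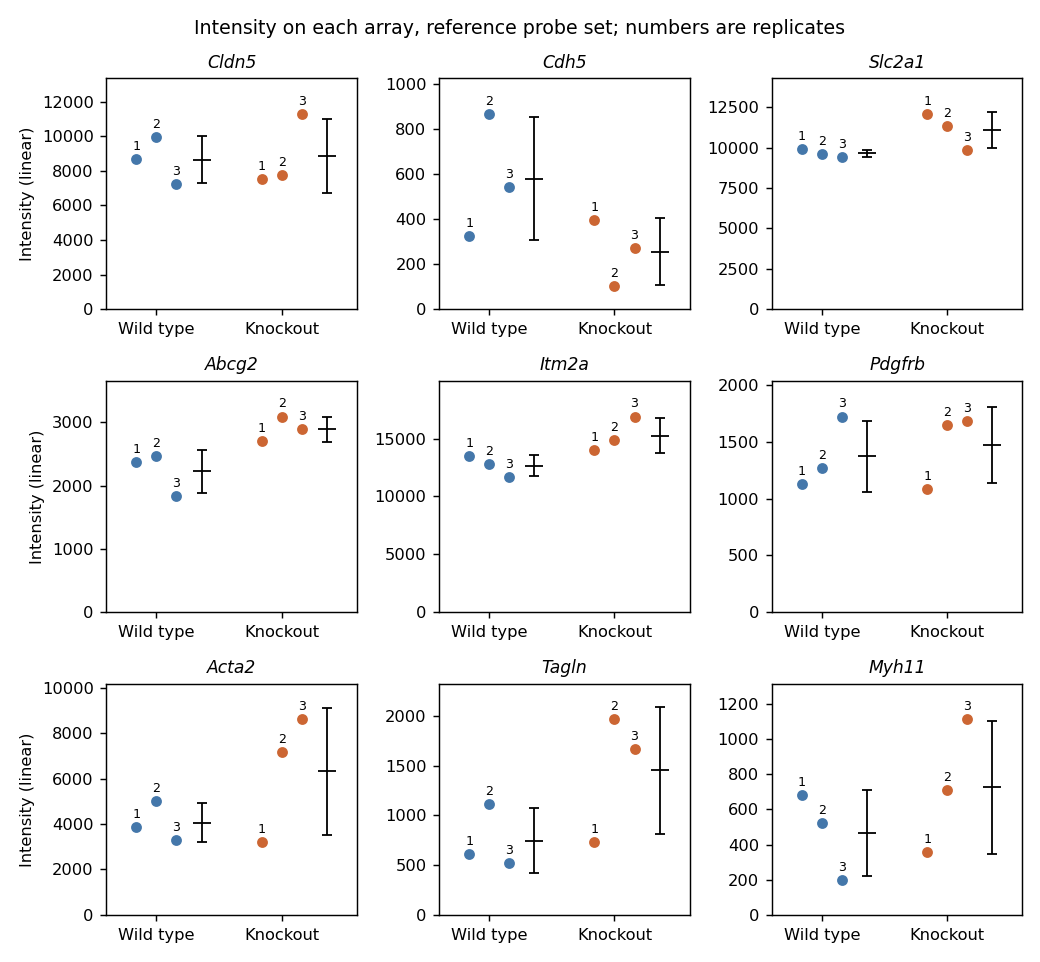
Intensity (y axis, linear, from 0) of 9 member genes on each array, at the brightest tested probe set; points are arrays numbered by replicate, and the bar beside them is the mean with its SD (n = 3). Knockout replicates 2 and 3 stand above the rest for Acta2 and Tagln, the groups separate for Abcg2 and Itm2a, and they overlap for Cldn5, Cdh5, Pdgfrb and Myh11.

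The arrays of one genotype were not alike in these genes. Counting for each of the 30 genes the array with its highest value, knockout replicate 2 held 10 and knockout replicate 3 held 9, and there were 5 for wild type replicate 2, 3 each for wild type replicate 3 and knockout replicate 1 and 0 for wild type replicate 1. Over all 12493 genes these counts were 2179, 2088, 1795, 2409, 2266 and 1756 in the same order of arrays. The lowest value fell on wild type replicates 1, 2 and 3 for 8, 5 and 9 genes and on knockout replicates 1, 2 and 3 for 7, 1 and 0, the 1 being Cdh5. Over all genes these counts were 1878, 1770, 2317, 2068, 2227 and 2233.

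Choroid plexus and meninges lie next to the hippocampus, and their markers shared the 2 highest arrays with smooth muscle genes but not the lowest. Taking for each gene the deviation from its mean over 6 arrays, smooth muscle genes averaged -0.20, 0.08 and -0.93 in wild type and -0.50, 0.67 and 0.89 in knockout. The 16 tested choroid plexus and ependymal markers of 18 averaged -0.97, 0.11 and 0.07 and then -0.26, 0.58 and 0.46, and the 14 meningeal and fibroblast markers -0.25, -0.01 and -0.24 and then -0.15, 0.40 and 0.26. All 3 lists are thus highest on knockout replicates 2 and 3, while smooth muscle genes are lowest on wild type replicate 3 and the other 2 lists on wild type replicate 1. Endothelial surface genes (-0.12, 0.04, -0.14, then -0.23, 0.18 and 0.27) were also highest on knockout replicates 2 and 3, in a smaller range. So were receptors (-0.21, -0.08, 0.08, then -0.18, 0.22 and 0.18), which were lowest on wild type replicate 1. Pericyte genes (-0.21, 0.11, -0.04, then -0.16, 0.23 and 0.09) were highest on knockout replicate 2, with wild type replicate 2 next. Transporters (-0.08, -0.06, -0.15, then 0.03, 0.16 and 0.10) are the one group with every knockout array above every wild-type array.

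The bordering markers were above 0 in change for 15 of 16 choroid plexus and ependymal genes (median 0.58) and for 14 of 14 meningeal and fibroblast genes (median 0.42). At an unadjusted p under 0.05 in limma, 5 of 23 choroid plexus and ependymal probe sets (21.7%) were higher. For the meningeal and fibroblast list 7 of 24 were (29.2%), against 2.17% of all tested, and 0 of either list were lower. Without overlap, 0 and 7 were higher, against 4.97% of all tested. Summed intensity of the choroid plexus and ependymal list ran from 214180 to 308994 over the wild-type arrays and from 245361 to 308137 over the knockout arrays. Most of it came from Ttr, the transthyretin gene, whose change was -0.02. For the meningeal and fibroblast list the sums ran from 41698 to 51606 and from 47576 to 67837. Of the red blood cell markers only Alas2, a haem synthesis enzyme, passed the filter (change 0.92), and Hba-a1 and Slc4a1 did not. Vessels run through meninges and choroid plexus as well as hippocampus, and the part of these tissues in the vascular differences was not tested. Microglial (median change -0.005), astrocyte (0.06), oligodendrocyte (-0.13) and neuronal markers (-0.05) deviated by at most 0.18 from their 6-array means, the largest being oligodendrocyte markers on wild type replicate 1. Transporters deviated by no more than that. Of the 24 neuronal probe sets 5 (20.8%) and of the 19 oligodendrocyte ones 5 (26.3%) were lower at an unadjusted p under 0.05 in limma, against 2.21% of all tested, and 0 were higher. As many of each had groups without overlap, all lower, where 4.91% of all tested were lower without overlap. Fa2h of oligodendrocytes was at -0.50 (limma adjusted p = 0.884). The part of these lower values in the vascular ones was not tested.

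**Figure D4:**
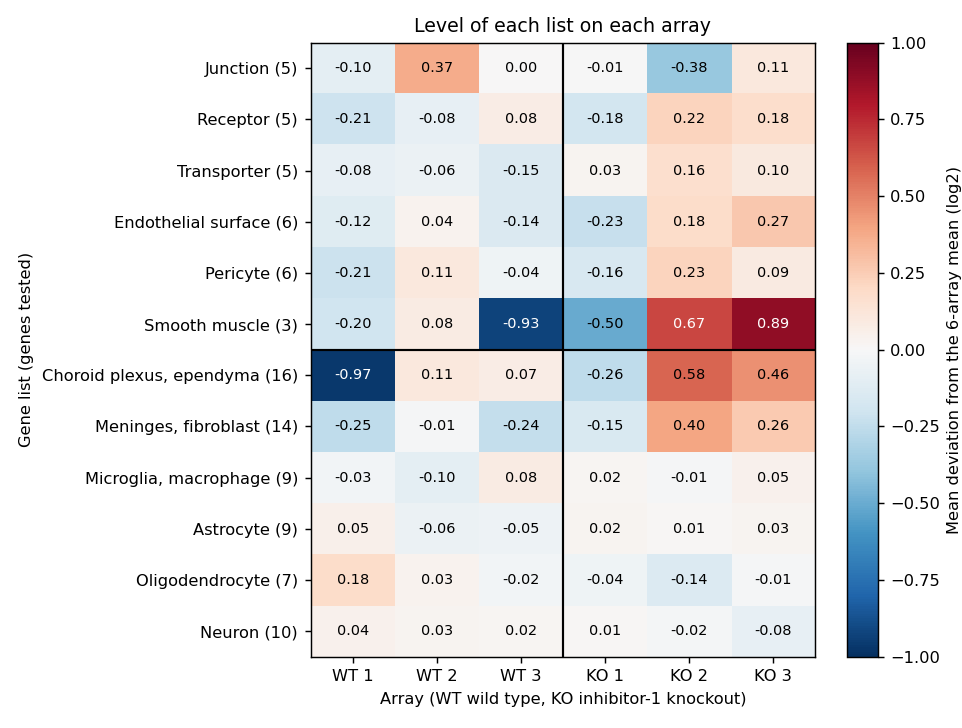
Mean deviation of each gene list from its mean over the 6 arrays (colour and printed value, log2), one column per array and one row per list, with the number of genes tested in brackets; the vascular groups are above the horizontal line. Smooth muscle, choroid plexus and meningeal genes are all highest on knockout replicates 2 and 3, at 0.26 to 0.89. The opposite values of junction genes on replicate 2 of each group (0.37 and -0.38) are 0.14 and -0.07 without Cdh5.

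Genes that signal to vessels or build the barrier beside the 34 members were then counted. Of 45 such genes 41 were tested, and 0 passed in either direction in limma (lowest adjusted p 0.988). At an unadjusted p under 0.05, 2 of the 41 genes were higher and 0 lower, where 305 and 289 of all 12493 genes were. Over all their 69 tested probe sets, 3 were higher (4.35%, against 2.17% of all tested) and 2 lower (2.90%, against 2.21%). Without overlap, 7 of the 69 were higher (10.1%, against 4.97% of all tested) and 3 lower (4.35%, against 4.91%). At the reference probe set 6 of the 41 genes were higher without overlap and 1 lower, where 667 and 640 of all 12493 genes were. A change above 0 was found for 28 of the 41 (median 0.10). Tjp1, which ties claudins and occludin to the actin skeleton, gave 12366, 9598 and 10243 in wild type and 13161, 13682 and 15237 in knockout. The groups do not overlap, and its change of 0.39 (SE 0.10, limma unadjusted p = 0.00288) kept an unadjusted p under 0.05 in 17 of 17 alternatives, with an adjusted p of at least 0.0812. Wnt7b, a ligand by which neurons and glia maintain the barrier, gave 3608, 3396 and 3444 against 4603, 3774 and 5114 (change 0.36, SE 0.13, limma unadjusted p = 0.0167). Tjp1 is also made outside vessels, in glia and epithelia, and Wnt7b is made in neurons. Among growth factor ligands of the receptors above, Vegfa had a change of 0.18 (SE 0.16), Pdgfb -0.04 (SE 0.12) and Angpt2 -0.13 (SE 0.43). Angpt1 had 0.15 (SE 0.29), Vegfb -0.005 (SE 0.16), Vegfc 0.41 (SE 0.39) and Tgfb1 0.10 (SE 0.35). The groups of all of these overlapped. Pgf, a ligand of Flt1, gave 583, 406 and 662 in wild type and 403, 91 and 364 in knockout, with no overlap. Its estimate of -1.11 (SE 0.53) is the largest in size on this list, and as its knockout mean log2 level of 8.01 is below the filter, it too is a description.

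The 3 arrays in a group limit what these data can show. The unadjusted 95% interval lay within a 2-fold change in either direction for 25 of the 30 genes, the other 5 being Cdh5, Nostrin, Acta2, Tagln and Myh11. It lay within a log2 change of 0.5 for 10 of the 30, Cldn5, Slc2a1, Itm2a, Rgs5 and Bsg among them. Of the 12 members with several tested probe sets, 8 had changes of 1 sign, and Flt1, Pltp, Rgs5 and Abcc9 had both. The change below 0 of Abcc9 was that of its dim probe set, given above as a description only.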

How the data were processed

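The authors deposited one table of probe set intensity values for 6 one-colour Affymetrix mouse arrays of hippocampal total RNA. Per the file's values the intensities are linear, above 0 and scaled to one trimmed mean; the software that made them is not named in the labels. The platform annotation named 1 gene for 34958 of 45101 probe sets, and a RefSeq table of GRCm38.p6 held the gene IDs of all 32 measured members. Values became log2(intensity + 16). The 64 control probe sets and the lowest 40% by mean over all arrays were left out, leaving 26999. The genotypes were fitted in limma 3.58.1 under R 4.3.3 (group as the only term, intensity trend, two-sided, Benjamini-Hochberg over all tested probe sets, threshold 0.05). A gene's reference is its tested probe set with the highest mean. Members and lists were chosen with earlier results of these data known, so lists got no test. Members were described array by array if they are Cldn5 or Pdgfrb, had a probe set at an unadjusted p under 0.05, or had groups without overlap at the reference; vascular partners were named at an unadjusted p under 0.05. Array values of Flt1, Kdr, Tek, Vwf, Rgs5, Vtn, Abcb1a, Acta2 and Myh11 were added after their values were seen. So were the names Vegfa, Vegfb, Vegfc, Pdgfb, Angpt1, Angpt2, Tgfb1, Pgf, Ttr, Alas2, Hba-a1 and Slc4a1. Alternatives changed the pseudocount, the filter, the scaling, the variance model, array weights or the replicate block, averaged each gene's probe sets, or left out single arrays; leaving out replicate 1 of both groups was chosen after seeing the data. No detection calls were used.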

Additional observations from a re-analysis of the deposited data

How the results depend on the processing

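The count of called member probe sets and of called vascular partner genes was 0 in limma under all 17 alternatives, with a lowest adjusted p for a member of 0.094 (without replicate 1 of both groups). The count of member probe sets at an unadjusted p under 0.05, which was 7, became 2 without an intensity trend, 3 after setting array medians equal, 12 with array weights, 11 without replicate 1 of both groups and 3 to 13 leaving out 1 array; the cause was not tested. It was 10 with the replicate block. No label pairs the samples, and deviations of same-numbered arrays correlated at 0.241, 0.0542 and 0.0998, so the block is an alternative only. The number of member genes above 0 ran from 19 (with the 60% lowest left out, where fewer genes were tested, and without wild type replicate 1) to 28 (without knockout replicate 1). The endothelial median ran from 0.10 to 0.18 and the mural median from 0.07 to 0.30, against -0.02 to 0.003 for all genes. Over 538 comparisons of single genes, 32 genes in all, 0 crossed the adjusted threshold and 34 changed sign. The median SE was 0.186 over the members' probe sets and 0.177 over all tested.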
